A study of Mus musculus with 8 samples.

Results

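The 10 genes described here encode core parts of the endoplasmic reticulum (ER) stress response: Hspa5, Hsp90b1, Calr, Pdia4, Dnajb9, Herpud1, Atf6, Xbp1, Atf4 and Ddit3. They were taken by gene symbol from a table of 55401 genes. The symbols matched 11 rows, because Ddit3 is listed under 2 gene IDs. The RNA came from whole tibialis anterior (TA) muscles of male mice 6 mo old, 4 wild type (WT) on the C57/Bl6 strain and 4 mdx5cv on the same B6 background. The mdx5cv mouse carries a mutation in Dmd, the dystrophin gene, in every cell and is a model of Duchenne muscular dystrophy. A whole muscle holds fibers together with immune and connective tissue cells, so that fewer cells of a type and less RNA per cell cannot be told apart in these values. The labels give each muscle a replicate number but do not say that every library came from a separate animal, so the p-values measure the spread between these samples.

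Secreted and membrane proteins fold in the ER, and in muscle the same membrane system, as the sarcoplasmic reticulum, stores the calcium for contraction. When unfolded proteins build up, the ER sensors PERK (Eif2ak3), IRE1 (Ern1) and ATF6 start the unfolded protein response. ATF6 and spliced XBP1 switch on chaperone and degradation genes, and PERK phosphorylates eIF2α, which favours translation of ATF4 and, through it, transcription of Ddit3 (CHOP). Counts per gene measure the mRNA only: they show neither Xbp1 splicing nor ATF6 cleavage nor the translation of Atf4.

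The ER stress genes did not move one way in mdx5cv TA muscle. Pdia4, Hsp90b1 and Xbp1 were higher than in WT, Atf4 and Herpud1 were lower, and Hspa5, Calr, Dnajb9, Atf6 and Ddit3 did not pass the test. A gene was called at an adjusted p under 0.05 in limma, with Benjamini-Hochberg adjustment over the 13677 genes whose normalized counts averaged 10 or more, and log2 fold changes are mdx5cv minus WT on the log2(normalized count + 1) scale. Of the 10 genes 3 were called higher (30%), beside 20.9% of all genes tested, and 2 were called lower (20%), beside 20.1%. No member reached an absolute log2 fold change of 1 together with that p in limma, edgeR or DESeq2, which 13.6% of all genes did in limma. The median log2 fold change was 0.16 over the members and 0.0035 over all genes tested. Both counts lie near the shares of all genes tested.

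The authors' normalization bears on these directions. Recovered reads per muscle ranged from 13175524 to 14921057, while the deposited size factors ranged from 0.873 to 0.944 in WT and from 1.06 to 1.25 in mdx5cv. Scaling the libraries to equal totals instead moved the median over all genes tested from 0.0035 to 0.357 on the log2 scale and the share of calls that were higher from 51.0% to 86.9%. Under equal totals 7 members were higher and 1, Atf4, was lower, beside 5444 higher and 820 lower of the 13677 genes tested. Dmd itself had 6954 ± 857 normalized counts in WT and 3964 ± 388 in mdx5cv (SD, n = 4), for a log2 fold change of -0.81 (limma, adjusted p = 0.000177), with no overlap between the groups. Regenerating fiber, macrophage and fibroblast markers were much higher in the mdx5cv muscles, and their values stand beside the results at the end.

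**Figure D1:**
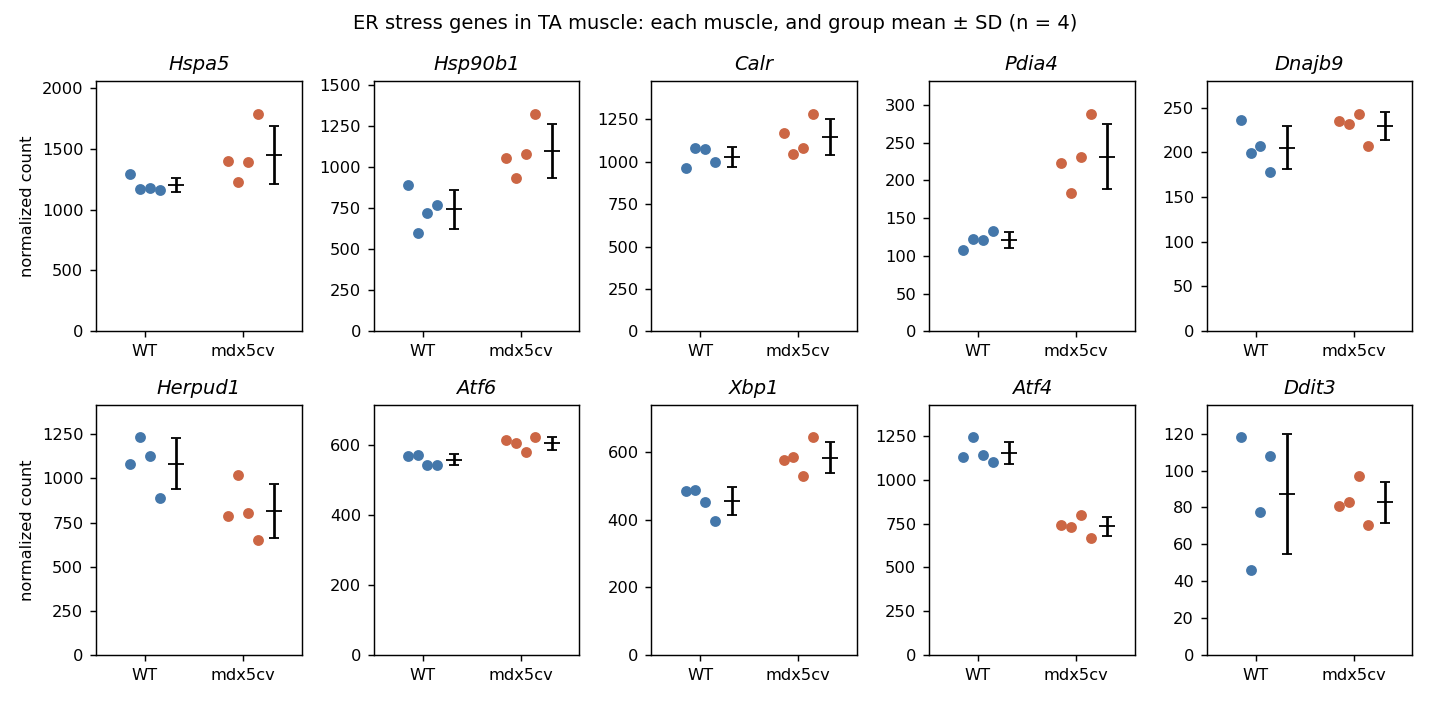
Normalized count (linear axes from 0) of each of the 10 genes in each muscle, WT in blue and mdx5cv in orange, with the group mean ± SD beside the points (n = 4). Pdia4, Hsp90b1, Xbp1 and Atf6 have every mdx5cv muscle above every WT muscle, Atf4 has every mdx5cv muscle below, and the groups overlap for the other 5.

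Many ER chaperone genes carry the ER stress response element (ERSE) in their promoters, in which CCAAT is bound by NF-Y and CCACG, 9 bases further on, by ATF6. RefSeq promoter windows, from 250 bases before to 50 after the start (position 0) on GRCm38.p6, were at hand for 9 of the 10 genes, all but Atf6. An exact ERSE on either strand was found in 39 of 32851 windows of this length (0.119%), and 3 of these belong to Hspa5, Hsp90b1 and Calr. These matches are shown because the element is rare among promoters and lies in these 3 chaperone genes. They lie at chr2:34772025-34772043 (Hspa5, bases -65 to -47), chr10:86705638-86705656 (Hsp90b1, bases -212 to -194), chr10:86705533-86705551 (Hsp90b1, bases -107 to -89) and chr8:84847075-84847093 (Calr, bases -162 to -144). Each is written 5′ to 3′ in the direction of the element, with its 5-base parts in capitals; the Calr element and the downstream Hsp90b1 element run opposite to the gene.
Hspa5: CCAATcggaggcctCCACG
Hsp90b1, upstream: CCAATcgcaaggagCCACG
Hsp90b1, downstream: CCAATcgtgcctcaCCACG
Calr: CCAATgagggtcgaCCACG

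With 1 mismatch allowed in the CCACG part, 328 windows matched (0.998%), among them 6 of the 9. Counted from 1 at the 5′ end of the element, the Pdia4 match at chr6:47813602-47813620 differs by G19T, the Herpud1 match at chr8:94386411-94386429 by G19A, the Ddit3 match at chr10:127290702-127290720 by C15G and a further Hsp90b1 match at chr10:86705598-86705616 by C18G. Herpud1 also held an ERSE-II, in which ATTGG and CCACG are separated by 1 base, at chr8:94386377-94386387, a motif found in 12 windows (0.0365%). It held the ATF4 target motif TTGCATCA (CARE) at chr8:94386317-94386324 too, found in 294 windows (0.895%). The motif TGACGTGG (UPRE) was in 222 windows (0.676%) and in no member's window. No match in the members' windows overlapped another. A match describes letters only, and its absence says nothing of a factor's binding. The RefSeq starts are not always those of the gene intervals given below. The Dnajb9 window (chr12:44210019-44210318) lies wholly inside the Dnajb9 interval, and the exact Hspa5 ERSE lies inside the Hspa5 interval.
Pdia4: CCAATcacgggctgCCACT
Herpud1: CCAATggatggcagCCACA
Ddit3: CCAATcagaaagcgGCACG
Hsp90b1, middle: CCAATcggaactgtCCAGG
Herpud1, ERSE-II: ATTGGGCCACG

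The whole windows of 4 genes are given so that the spacing of these elements can be read. They are Hsp90b1 and Pdia4, which were higher, Hspa5, which holds an exact ERSE and was not called, and Herpud1, which holds the most kinds of motif and was lower. Each runs 5′ to 3′ on the strand of the gene, with both parts of every ERSE and ERSE-II match and the CARE in capitals, and a match on the other strand appears as its reverse complement. The windows lie at chr10:86705395-86705694 (Hsp90b1, minus strand), chr6:47813463-47813762 (Pdia4, minus strand), chr2:34771840-34772139 (Hspa5, plus strand) and chr8:94386179-94386478 (Herpud1, plus strand). Their GC content was 66.7%, 68.0%, 61.3% and 68.3%, in that order.
Hsp90b1: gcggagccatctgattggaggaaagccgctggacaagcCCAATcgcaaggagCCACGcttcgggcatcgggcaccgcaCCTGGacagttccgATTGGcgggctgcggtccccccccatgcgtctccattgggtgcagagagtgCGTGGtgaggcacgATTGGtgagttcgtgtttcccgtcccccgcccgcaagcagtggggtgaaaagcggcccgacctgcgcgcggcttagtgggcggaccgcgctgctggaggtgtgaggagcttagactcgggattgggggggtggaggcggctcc
Pdia4: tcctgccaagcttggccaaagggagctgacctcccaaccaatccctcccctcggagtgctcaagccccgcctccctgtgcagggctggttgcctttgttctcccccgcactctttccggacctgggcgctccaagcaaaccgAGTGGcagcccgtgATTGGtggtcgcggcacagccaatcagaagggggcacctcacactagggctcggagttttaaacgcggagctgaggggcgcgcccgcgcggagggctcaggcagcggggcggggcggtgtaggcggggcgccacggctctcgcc
Hspa5: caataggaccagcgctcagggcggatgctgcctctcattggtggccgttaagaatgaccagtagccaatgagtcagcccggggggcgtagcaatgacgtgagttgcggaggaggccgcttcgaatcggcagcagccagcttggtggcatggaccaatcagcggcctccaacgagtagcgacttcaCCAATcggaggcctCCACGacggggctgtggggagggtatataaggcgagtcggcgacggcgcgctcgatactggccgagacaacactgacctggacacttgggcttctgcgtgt
Herpud1: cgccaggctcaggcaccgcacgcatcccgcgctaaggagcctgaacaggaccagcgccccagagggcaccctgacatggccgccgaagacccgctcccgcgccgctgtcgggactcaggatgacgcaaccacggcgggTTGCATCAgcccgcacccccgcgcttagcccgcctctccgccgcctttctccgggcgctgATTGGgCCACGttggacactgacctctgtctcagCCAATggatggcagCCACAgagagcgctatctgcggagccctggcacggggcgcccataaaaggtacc

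**Figure D2:**
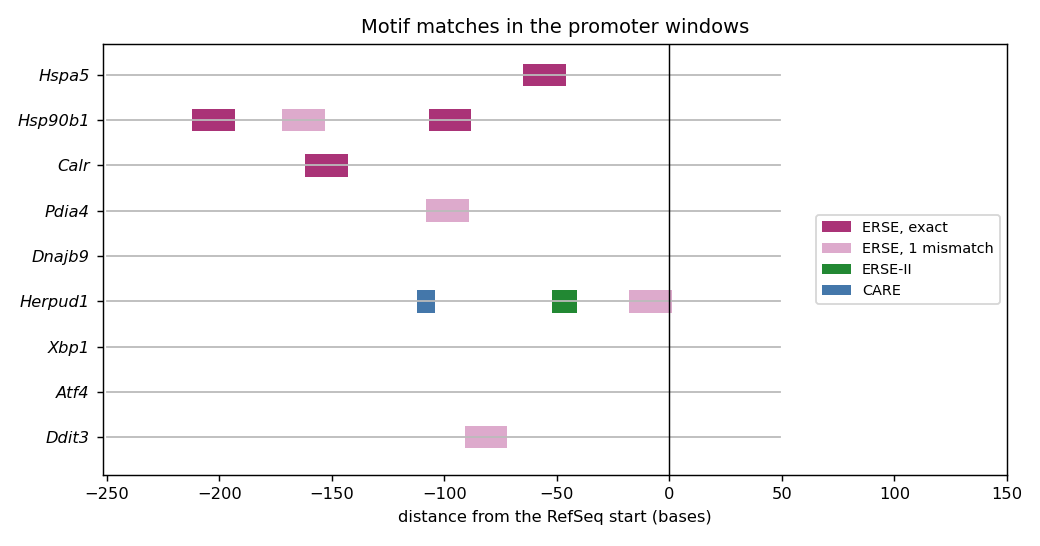
Motif matches in the promoter windows of 9 members, by distance in bases from the RefSeq start (vertical line at 0). Exact ERSE matches lie in Hspa5, Hsp90b1 and Calr, matches with 1 mismatch in Hsp90b1, Pdia4, Herpud1 and Ddit3, the ERSE-II and the CARE in Herpud1, and no match in Dnajb9, Xbp1 or Atf4.

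Among the chaperones and folding enzymes, Pdia4 showed the largest difference of the 10 genes. Pdia4 (chr6:47796141-47813430, minus strand, GRCm38), a protein disulfide isomerase of the ER lumen, had 108, 122, 121 and 133 normalized counts in the WT muscles and 223, 183, 231 and 288 in the mdx5cv muscles. Every mdx5cv muscle lay above every WT muscle, and replicate 4 was the highest. The means of 121 ± 10.5 and 232 ± 43.5 (SD, n = 4) differ 1.92-fold, with a log2 fold change of 0.92 (SE 0.14, limma, adjusted p = 0.000302).

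Hsp90b1 (chr10:86690209-86705509, minus strand) encodes GRP94, the HSP90 of the ER. Its normalized counts were 888, 600.0, 716 and 766 in WT and 1052, 931, 1075 and 1323 in mdx5cv. The groups did not overlap, although the highest WT muscle came close to the lowest mdx5cv muscle. This gave a log2 fold change of 0.56 (SE 0.14, limma, adjusted p = 0.00514). An annotated transcribed pseudogene on the opposite strand, 1810014B01Rik, covers 415 exon bases of Hsp90b1 (10.3%), Gm15344 and Gm25745 overlap it on the same strand, and whether the counting used the strand is not given in the sources used here.

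Hspa5 (chr2:34771970-34777547, plus strand) encodes BiP, the HSP70 of the ER that holds the stress sensors inactive. It had 1290.4, 1174, 1179 and 1163 normalized counts in WT and 1397, 1231, 1391 and 1790.0 in mdx5cv. Replicate 2 of mdx5cv fell below the highest WT muscle, and replicate 4 stood well above the rest. The log2 fold change was 0.26 with a 95% confidence interval of 0.011 to 0.51 before adjustment, and the call was missed (limma, adjusted p = 0.0889). It passed without mdx5cv replicate 2 (0.34, limma, adjusted p = 0.0427), and without mdx5cv replicate 4 the value was 0.16 (limma, adjusted p = 0.216). Under equal totals Hspa5 was called, at 0.62 (limma, adjusted p = 0.00469).

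Calr (chr8:84841850-84846934, minus strand) encodes calreticulin, a calcium-binding lectin chaperone of glycoproteins. Its normalized counts were 963, 1082, 1077 and 999 in WT and 1172, 1046, 1083 and 1284 in mdx5cv, with overlapping groups. The log2 fold change of 0.15 had a 95% confidence interval of -0.062 to 0.37 (limma, adjusted p = 0.243). Of the 19 alternatives, Calr was called only under equal totals (0.51, limma, adjusted p = 0.00764).

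Dnajb9 (chr12:44205559-44210326, minus strand) encodes ERdj4, a J-domain partner of BiP. It had 236, 199.6, 207 and 178 normalized counts in WT and 235, 231, 243 and 207 in mdx5cv. The groups overlapped through WT replicate 1, which lay above all but 1 of the mdx5cv muscles. The log2 fold change was 0.16 with a 95% confidence interval of -0.094 to 0.42 (limma, adjusted p = 0.295), and 0.52 under equal totals (limma, adjusted p = 0.00431).

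Herpud1 (chr8:94386438-94395377, plus strand) encodes HERP, a membrane protein of ER-associated degradation, and it moved opposite to Pdia4 and Hsp90b1. It had 1083, 1233, 1127 and 889 normalized counts in WT and 787, 1019, 802 and 653 in mdx5cv. The groups overlapped, as mdx5cv replicate 2 lay above WT replicate 4. The log2 fold change was -0.42 (SE 0.14, limma, adjusted p = 0.0292). This call is close to the threshold: it was lost under equal totals, at -0.059 (limma, adjusted p = 0.697), without a variance trend (limma, adjusted p = 0.0706), and without WT replicate 1, 2 or 3 or mdx5cv replicate 1, 3 or 4 (limma, adjusted p from 0.0562 to 0.0790).

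Of the transcription factors, Xbp1 was higher, Atf4 was lower, and Atf6 and Ddit3 were not called. Xbp1 (chr11:5520659-5525893, plus strand), whose mRNA is spliced by IRE1, had 485, 488, 452 and 397 normalized counts in WT and 576, 584, 530.4 and 643 in mdx5cv. All 4 mdx5cv muscles lay above all 4 WT muscles. Xbp1 had a log2 fold change of 0.36 (SE 0.11, limma, adjusted p = 0.0165), and centring each sample on its median gave 0.26, which was not called (limma, adjusted p = 0.0646).

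Atf6 (chr1:170704674-170867771, minus strand), the sensor that is cut in the Golgi to release a transcription factor, had the tightest values of the 10 genes in both groups. Its normalized counts were 571, 574, 545 and 546 in WT and 615, 608, 581 and 623 in mdx5cv. Every mdx5cv muscle lay above every WT muscle, but by little. Its log2 fold change was 0.12 with a 95% confidence interval of -0.073 to 0.31 (limma, adjusted p = 0.309), and 0.48 under equal totals (limma, adjusted p = 0.00464). With Atf6, 4 of the 10 genes had all mdx5cv muscles above all WT muscles, beside 20.3% of all genes tested, and 1 gene, Atf4, had all of them below, beside 19.8%.

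Atf4 (chr15:80255184-80257541, plus strand), the main effector of phosphorylated eIF2α, was the most clearly lower of the members. It had 1129, 1242, 1141 and 1098 normalized counts in WT and 741, 729, 798 and 666 in mdx5cv. The ranges are far apart, with no WT muscle under 1098 and no mdx5cv muscle over 798. The means were 1153 ± 62.1 and 733 ± 54.2 (SD, n = 4), the log2 fold change was -0.65 (SE 0.10, limma, adjusted p = 0.000167), and it stayed called in each of 19 alternatives, from -0.75 to -0.29.

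Ddit3 (chr10:127290774-127296288, plus strand) encodes CHOP, the factor that links lasting ER stress to cell death. Its normalized counts were 118, 46.1, 77.4 and 108 in WT and 80.6, 83.0, 97.3 and 70.3 in mdx5cv. The mdx5cv values all lay within the WT range, which was the widest of the members, with a coefficient of variation of 37.2% in WT and 13.4% in mdx5cv. The log2 fold change was 0.0010 with a 95% confidence interval of -0.54 to 0.54 (limma, adjusted p = 0.997), so differences of up to that size were not detectable. The row of the other Ddit3 ID was 0 in all 8 muscles and was not tested. Its 105 exon bases lie wholly within the main Ddit3 gene and make up 6.13% of that gene's exons.

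**Figure D3:**
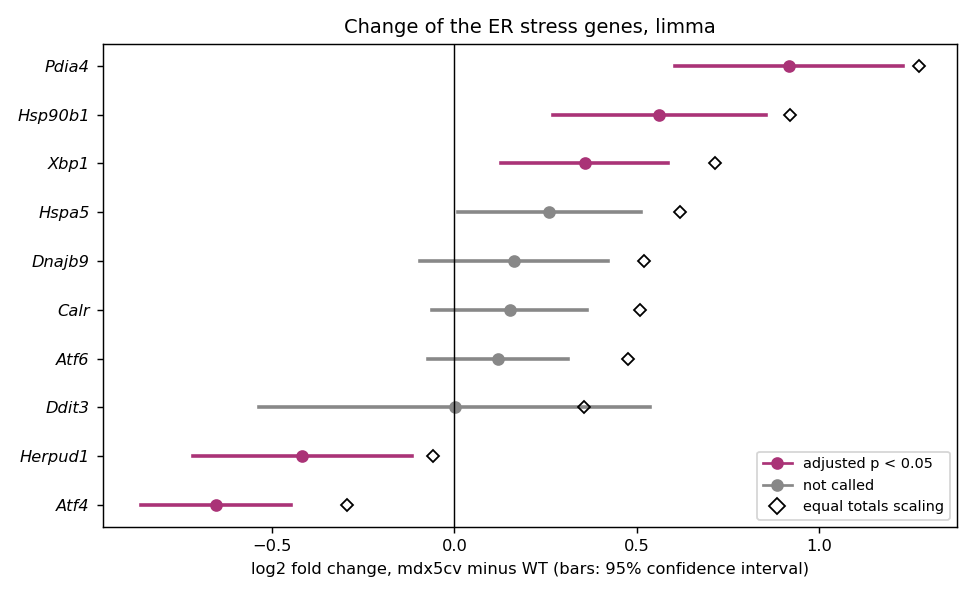
Log2 fold change (mdx5cv minus WT) of each gene from limma, with its unadjusted 95% confidence interval (n = 4 per group). Purple marks an adjusted p under 0.05, and the open diamonds give the value when libraries are scaled to equal totals, which lies to the right of the main value for each gene and leaves Atf4 below 0.

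Expressed per kilobase of merged exons, the order of the 10 genes was not the same in the 2 groups. This length joins all annotated exons of a gene, whichever transcripts the muscles hold, so the order between genes depends on it. In WT, Atf4 led with 489 ± 26.3 normalized counts per kilobase, followed by Herpud1 (464 ± 61.7), Calr (358 ± 20.4), Hspa5 (284 ± 14.1), Hsp90b1 (184 ± 29.6) and Xbp1 (140.3 ± 13.0; SD, n = 4). Dnajb9 (80.5 ± 9.42), Atf6 (60.5 ± 1.69), Ddit3 (51.0 ± 19.0) and Pdia4 (50.4 ± 4.39) came last. Atf4 and Herpud1, Hsp90b1 and Xbp1, Atf6 and Ddit3, and Ddit3 and Pdia4 overlapped as neighbours in this order.

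In mdx5cv, Calr led with 398 ± 36.8 normalized counts per kilobase. Herpud1 (349 ± 64.9), Hspa5 (343 ± 56.2), Atf4 (311 ± 23.0) and Hsp90b1 (272 ± 40.8) followed. These 5 genes overlapped from each to the next, so their order is not resolved. Xbp1 (179.6 ± 14.3) came next without overlap, and Ddit3 (48.3 ± 6.48) was last. Pdia4, last in WT, reached 96.5 ± 18.1, above Atf6 (65.7 ± 1.997) without overlap, while its range overlapped that of Dnajb9 (89.9 ± 6.12).

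Across the wider ER stress pathways, 103 of 108 further listed genes were tested, and 32 were higher (31.1%, beside 20.9% of all genes tested) and 15 lower (14.6%, beside 20.1%), with a median log2 fold change of 0.12. Under equal totals 61 were higher and 2, Sar1b and Cebpg, were lower, beside 5444 higher and 820 lower of the 13677 genes tested. By group, the counts ran from disulfide isomerases, with 5 higher and 0 lower, to COPII export genes, with 2 higher and 4 lower, which became 6 higher and 1 lower under equal totals. These lists, like the 10 genes, were chosen with earlier results of these data known, so their counts are a description.

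**Figure D4:**
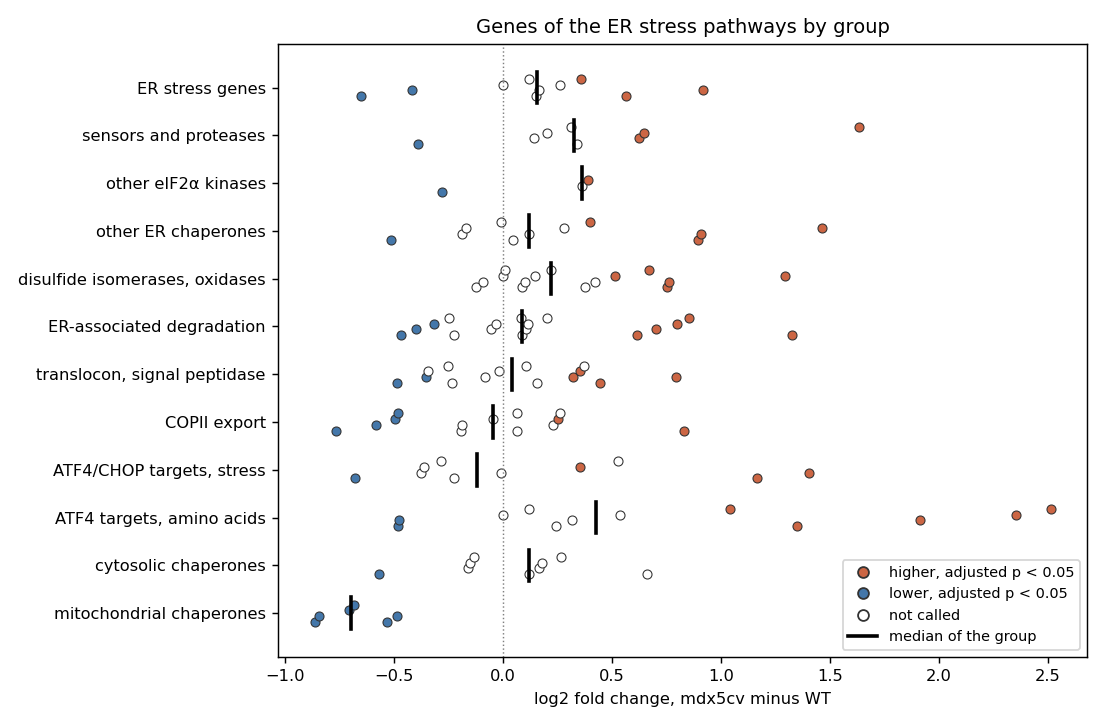
Log2 fold change (mdx5cv minus WT) of each tested gene of the ER stress pathways and of the cytosolic and mitochondrial chaperones, by group. Orange points were higher and blue points lower at an adjusted p under 0.05, open points were not called and black bars are medians; the 15 disulfide isomerases and oxidases hold no blue point and the 6 mitochondrial genes only blue points.

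Of 8 sensors and partners, 3 were higher (37.5%, beside 20.9% of all genes tested) and 1 was lower (12.5%, beside 20.1%). Ern1, which encodes IRE1, had 138 to 196 normalized counts in WT and 222 to 317 in mdx5cv, with a log2 fold change of 0.65 (SE 0.15, limma, adjusted p = 0.00375). Atf6b, the paralog of Atf6, had a log2 fold change of 0.62 (limma, adjusted p = 0.0112). Creb3l1, a membrane-bound factor related to ATF6 and known for its part in collagen production, had 16.9 ± 7.77 normalized counts in WT and 52.8 ± 17.4 in mdx5cv (SD, n = 4), for a log2 fold change of 1.64 (limma, adjusted p = 0.00214). These 3 genes were called by edgeR and DESeq2 as well. Eif2ak3, which encodes PERK, was not called, at 0.34 (limma, adjusted p = 0.0998), and Eif2s1, the gene of eIF2α itself, was lower at -0.39 (limma, adjusted p = 0.0127).

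The other eIF2α kinases split. Eif2ak4 (GCN2, the sensor of amino acid shortage) was higher at 0.39 (limma, adjusted p = 0.0161), and Eif2ak1 (HRI, the heme-regulated kinase) was lower at -0.28 (limma, adjusted p = 0.0484). The Eif2ak1 call was missed by edgeR and DESeq2 (adjusted p = 0.0510 in each) and its sign turned under equal totals (0.078).

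Target genes of ATF4 and CHOP were called in both directions, beside the lower Atf4 mRNA. Of 10 tested stress and feedback targets, 3 were higher (30%, beside 20.9% of all genes tested) and 1 lower (10%, beside 20.1%). Atf3, a stress-induced transcription factor, ranged from 16.9 to 28.7 normalized counts in WT and from 32.4 to 109 in mdx5cv, with a log2 fold change of 1.40 (limma, adjusted p = 0.00494). Nupr1 was higher at 1.17 (limma, adjusted p = 0.000643) and Ppp1r15b, which encodes a subunit of the eIF2α phosphatase, at 0.36 (limma, adjusted p = 0.0143). Cebpg, a partner of ATF4, was lower at -0.68 (limma, adjusted p = 0.000137), much like Atf4 itself.

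The other stress targets named here were not called or were too low to test. Chac1, a glutathione-degrading enzyme, varied from 193 to 487 normalized counts in WT and from 67.1 to 669 in mdx5cv and was not called (limma, adjusted p = 0.604). Ppp1r15a (GADD34) had a log2 fold change of -0.23 and was not called (limma, adjusted p = 0.424). Trib3, Gdf15 and Fgf21 were below the filter and were not tested. Trib3 had 5.73 to 9.95 normalized counts in WT and 0.926 to 5.66 in mdx5cv, and Gdf15 stayed at or under 4.79 in all 8 muscles. Fgf21, a stress-induced hormone, was at 0 in the 4 WT muscles and at 0.926 to 2.70 in the mdx5cv muscles, which is at most 3 reads per library.

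The amino acid branch of the ATF4 targets held the highest rises of these lists. Of 12 tested genes 5 were higher (41.7%, beside 20.9% of all genes tested) and 2 lower (16.7%, beside 20.1%). Psat1, of serine synthesis, went from 9.30 ± 2.62 normalized counts in WT to 60.6 ± 29.1 in mdx5cv (SD, n = 4), for a log2 fold change of 2.51 (limma, adjusted p = 4.63e-05). Slc7a5, the large neutral amino acid transporter LAT1, rose by 2.36 (limma, adjusted p = 5.74e-05), and Asns, asparagine synthetase, by 1.35 (limma, adjusted p = 0.00859). Phgdh, the first enzyme of serine synthesis, was higher at 1.92, and Aldh18a1, of proline synthesis, at 1.04. Slc38a2, the SNAT2 transporter, was lower at -0.48 (limma, adjusted p = 0.00844), and so was Psph, the last enzyme of serine synthesis, at -0.48 (limma, adjusted p = 0.0350), a call that DESeq2 missed (adjusted p = 0.0532). Psat1, Slc7a5 and Asns were all highest in mdx5cv replicate 4. Their WT means were 9.30, 9.61 and 9.59 normalized counts, under the filter of 10, so they were tested only because of their mdx5cv values.

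Other luminal chaperones resembled the members, with some higher and most not called. Of 11 genes 4 were higher (36.4%, beside 20.9% of all genes tested) and 1 was lower (9.09%, beside 20.1%). The median was 0.12. Sdf2l1, an ER protein that works with BiP, was higher at 1.46 (limma, adjusted p = 0.00593), Manf, a secreted ER stress protein, at 0.91 (limma, adjusted p = 0.00153), and Creld2 at 0.90 (limma, adjusted p = 0.00225). Hyou1, an exchange factor for BiP, was higher at 0.40 (limma, adjusted p = 0.0210). Canx, calnexin, the membrane counterpart of calreticulin, had 0.28 and was not called (limma, adjusted p = 0.0511), and Dnajb11, ERdj3, had 0.12 (limma, adjusted p = 0.398). Cdnf, a relative of Manf, was lower at -0.52 (limma, adjusted p = 0.0295).

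The disulfide isomerases and oxidases are the family of Pdia4. Of 15 genes 5 were higher (33.3%, beside 20.9% of all genes tested) and 0 lower (0%, beside 20.1%). At an unadjusted p under 0.05 0 were lower as well, and edgeR and DESeq2 called 0 lower. Pdia3 (ERp57), which works with calreticulin and calnexin, had 190.2 to 229.9 normalized counts in WT and 402 to 779.9 in mdx5cv, a log2 fold change of 1.29 (limma, adjusted p = 0.00011). Pdia6 was higher at 0.75 (limma, adjusted p = 0.00269), P4hb, which is both PDI and a subunit of collagen prolyl hydroxylase, at 0.67 (limma, adjusted p = 0.000733), Ero1b, an oxidase of PDI, at 0.76 (limma, adjusted p = 0.00471), and Erp29 at 0.51.

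ER-associated degradation is the pathway of Herpud1. Of its 17 tested genes 5 were higher (29.4%, beside 20.9% of all genes tested) and 3 lower (17.6%, beside 20.1%). Edem1, which marks misfolded glycoproteins for disposal, had 104 ± 14.4 normalized counts in WT and 273 ± 99.8 in mdx5cv (SD, n = 4), for a log2 fold change of 1.32 (limma, adjusted p = 0.00023). Edem2 was higher at 0.85 and Syvn1, the ubiquitin ligase HRD1, at 0.80 (limma, adjusted p = 0.000335), with Os9 and Ube2g2 also called. Sel1l, the partner of HRD1, had 0.086 and was not called (limma, adjusted p = 0.474). Ube2j2, a ubiquitin-conjugating enzyme, was lower at -0.40 (limma, adjusted p = 0.0234), and Edem3 was lower at -0.32, with a sign that turned under equal totals (0.042). Derl3 was below the filter, with 0 to 1.11 normalized counts in WT and 0 to 3.20 in mdx5cv.

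Genes of entry into and exit from the ER were mixed. Of 14 translocon and signal peptidase genes 4 were higher (28.6%, beside 20.9% of all genes tested) and 2 lower (14.3%, beside 20.1%). Sec61a1, the channel subunit, was higher at 0.80 (limma, adjusted p = 0.00162), Sec11c at 0.45 (missed by DESeq2, adjusted p = 0.0508), Spcs3 at 0.35 and Ssr1 at 0.32, while Sec61g was lower at -0.49 (limma, adjusted p = 0.0102). Ssr3 was lower at -0.35, and under equal totals its value was 0.0051. Sec61b had -0.34 and was not called (limma, adjusted p = 0.112).

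Of 13 COPII genes 2 were higher (15.4%, beside 20.9% of all genes tested) and 4 lower (30.8%, beside 20.1%). Their median of -0.047 turned positive under equal totals (0.31). Sar1b, a GTPase of the coat, was lower at -0.77 (limma, adjusted p = 0.000286) and Sar1a at -0.58 (limma, adjusted p = 0.00327), with Sec23a and Sec13 also lower. Sec24d, known for collagen export, was higher at 0.83 (limma, adjusted p = 0.00723), and Sec16a at 0.25 (limma, adjusted p = 0.0306).

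Chaperones of other compartments, among them relatives of Hspa5 and Hsp90b1, had no gene called higher with the deposited scaling. Of 9 cytosolic chaperone genes 0 were higher in limma, at an unadjusted p under 0.05, in edgeR or in DESeq2. In limma 1 of the 9 was lower (11.1%). Of all genes tested, 20.9% were higher and 20.1% lower. Under equal totals 1, Hsp90aa1, was called higher (0.62, limma, adjusted p = 0.0167) and 0 were lower, as Hspa8 was then at -0.21 (limma, adjusted p = 0.239). Hspa8, the constitutive HSP70 of the cytosol, had 8954 ± 905 normalized counts in WT and 6038 ± 554 in mdx5cv (SD, n = 4), for a log2 fold change of -0.57 (limma, adjusted p = 0.00196). Hsp90aa1 had 0.26 (limma, adjusted p = 0.162) and Hsp90ab1 -0.16 (limma, adjusted p = 0.617), and neither was called. In mitochondria 6 of 6 chaperone and protease genes were lower, with a median of -0.70. Hspa9, the mitochondrial HSP70, was at -0.71 (limma, adjusted p = 0.000762), and under equal totals 4 of the 6 were called lower.

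Ratios within a muscle do not depend on the scaling of its library, so they were formed for pairs of genes that were chosen after the values were seen. The log2 ratio of Hspa5 to Hspa8 was -3.07 to -2.58 in WT and -2.16 to -1.92 in mdx5cv, with means 0.83 apart and no overlap. The log2 ratio of Hspa5 to Hspa9 differed by 0.97 and that of Hsp90b1 to its mitochondrial relative Trap1 by 1.05, both without overlap. The log2 ratio of Hsp90b1 to Hsp90ab1 differed by 0.72 with overlapping groups. These pairs do not stand for every relative in those compartments.

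Ratios among the members were formed from genes whose calls were known, so they restate the split between them and do not test it. How often other gene pairs lie without overlap was not counted. The log2 ratio of Xbp1 to Atf4 was -1.47 to -1.22 in WT and -0.59 to -0.049 in mdx5cv, a difference of 1.01. That of Hsp90b1 to Atf4 differed by 1.22, and that of Pdia4 to Hspa5 by 0.66, with no overlap in either. Herpud1 and Atf4, the 2 members that were lower, kept closer to each other, with a difference of 0.24 in their log2 ratio and overlapping groups.

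The exact ERSE was also set against expression. Genes were matched to promoters by the symbol listed with the counts, so genes listed under an older symbol could be missed. Of all genes tested, 10039 matched a promoter entry, of which 2145 were higher (21.4%) and 2113 were lower, with a median of -0.010. Of the 16 matched genes with an exact ERSE, 9 were higher (56.2%) and 1 was lower (6.25%), with a median of 0.46. These 16 include Hsp90b1, which was higher, and Hspa5 and Calr, which were not called. Among the pathway lists, Creld2, Pdia6, Ero1b and Syvn1 held an exact ERSE and were higher, while Canx and Dnajc3 held one and were not called. Ero1b, listed under its older symbol, is not among the 16. With so few genes this is a description, and part of the 16 were already counted in the lists above.

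Cell type markers differed between the groups, and these values cannot tell the number of cells from the RNA per cell. The summed normalized counts of 7 macrophage markers ranged from 492 to 749 in WT and from 3596 to 8595 in mdx5cv, with 7 of 7 genes higher. Itgam and Cd14 averaged 3.88 and 6.95 normalized counts in WT, under the filter of 10. They were tested only because of their mdx5cv values. The 6 fibroblast markers summed to 5253 to 8003 in WT and to 18162 to 34169 in mdx5cv, with 5 of 6 genes higher and Dcn not called. The 6 markers of regenerating fibers summed to 118 to 143 in WT and to 2175 to 8502 in mdx5cv, with 6 of 6 higher. Mymx was at 0 in every WT muscle, and Mymk and Chrng each averaged 0.26 normalized counts in WT. Mymx, Mymk and Chrng were likewise tested only because of their mdx5cv values. Markers of mature fast fibers, by contrast, were lower for 3 of 6 genes, or for 1 of 6, Ckm, under equal totals, and their sum ranged from 977749 to 1177760 in WT and from 682819 to 1054390 in mdx5cv.

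Markers of plasma cells, which secrete antibody and are rich in ER, did not move one way. The 7 markers summed to 417 to 737 in WT and 252 to 408 in mdx5cv. Sdc1 and Igkc were higher, Ighm was lower and Prdm1 was not called. Jchain, Mzb1 and Tnfrsf17 were below the filter, and Tnfrsf17 was at 0 in the 4 mdx5cv muscles.

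Among the mdx5cv muscles, the members and the markers had the same extreme muscle. Replicate 4 had the highest macrophage, fibroblast and regenerating fiber sums, and of the 10 genes it was the highest mdx5cv muscle for 6 and the lowest for 4. It was the highest for Hspa5, Hsp90b1, Calr, Pdia4, Xbp1 and Atf6 and the lowest for Atf4, Herpud1, Ddit3 and Dnajb9. The part of cell makeup in these differences was not tested. Without this muscle Pdia4 (0.81), Hsp90b1 (0.47), Xbp1 (0.31) and Atf4 (-0.61) were still called on the log2 scale (limma, adjusted p from 0.000368 to 0.0406), and Herpud1 was not (limma, adjusted p = 0.0790).

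**Figure D5:**
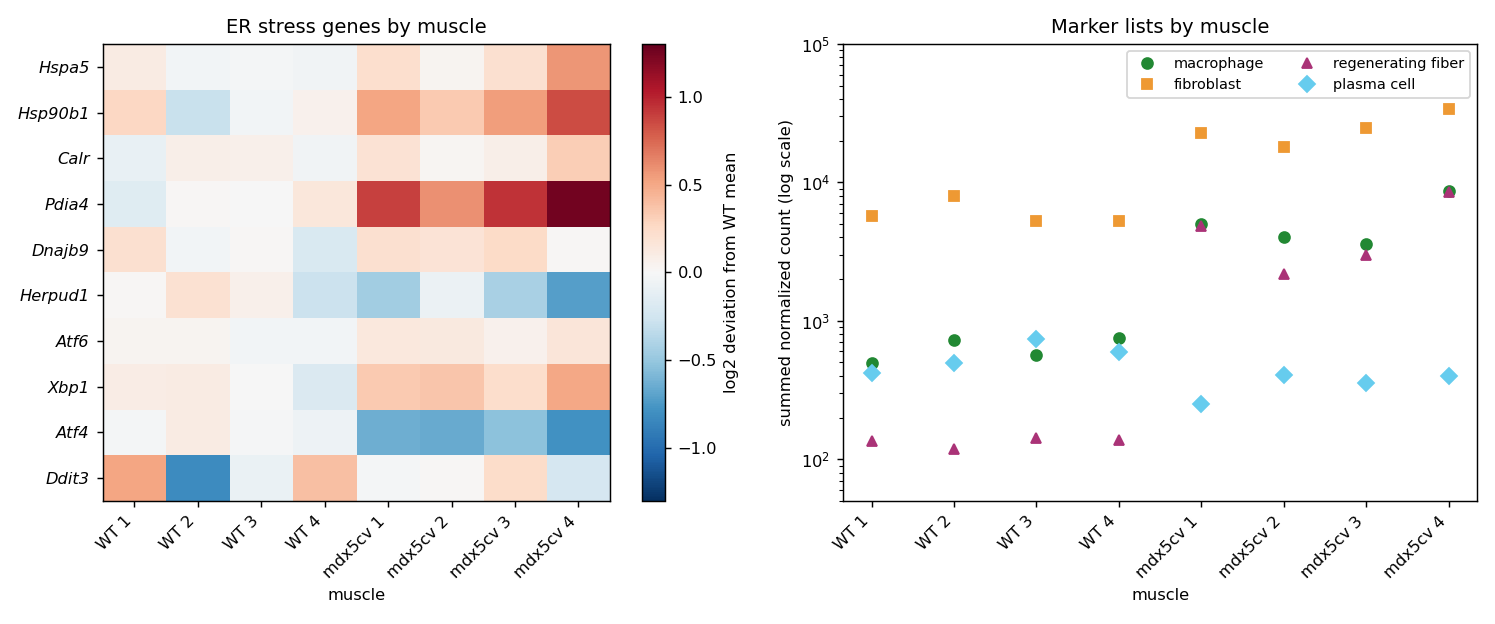
Left, log2 deviation of each gene from its WT mean in each of the 8 muscles; right, summed normalized counts of 4 marker lists in the same muscles, on a log axis. The mdx5cv muscles share higher Pdia4, Hsp90b1 and Xbp1 and lower Atf4, and mdx5cv replicate 4 has the deepest colours for most genes and the highest macrophage, fibroblast and regenerating fiber sums.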

How the data were processed

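4 WT and 4 mdx5cv samples of whole TA muscle were profiled by RNA-seq of total RNA (TRIzol, TruSeq Stranded Total RNA). The authors deposited a signal per gene, which is a count divided by a size factor of each library. The submitters' processing notes name mm10, Trim Galore 0.6.4, STAR 2.6.0c, SAMtools 1.9, featureCounts and DESeq2 1.26.0. The strand setting and annotation are not given in the sources used here. Whole reads were recovered from 100% of the values, within 0.01 reads, and gave 13175524 to 14921057 reads per muscle. This depth kept 13677 genes at a mean normalized count of at least 10.

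limma 3.58.1 in R 4.3.3 (two-sided, lmFit, then eBayes using a variance trend) was run on log2(normalized count + 1), without covariates, with Benjamini-Hochberg adjustment over the genes kept. This scale understates changes of low genes. The alternatives were edgeR 4.0.16 (quasi-likelihood) and DESeq2 1.42.0 on recovered reads, pseudocounts of 0.1 and 10, other filters and scalings, no variance trend, a replicate block, a minimum fold change and each replicate left out. The script was tested on simulated data. Between replicates, chi-square per degree of freedom ranged from 8.59 to 38.5, so each library was counted once.

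Gene coordinates, exon lengths and overlaps are from GENCODE M21 (GRCm38), which holds 55141 of the gene IDs. Promoter sequences are from RefSeq (GRCm38.p6). Ero1a and Ero1b were matched by their older symbols. The members and lists were chosen with earlier results of these data known. Genes named are the members, Dmd, the 2 highest and 2 lowest calls of each list, and a set of well-known pathway genes. The other genes named to complete a count, such as Phgdh, Aldh18a1, Ppp1r15b, Erp29, Os9, Ube2g2, Edem3, Spcs3, Ssr1, Sec23a, Sec13, Dnajc3 and Trap1, were chosen after their values were seen. A gene of the lists that falls under this rule is counted in its list and not reported here by itself.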

Additional observations from a re-analysis of the deposited data

Results flagged for a closer look

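A muscle was singled out where its log2(normalized count + 1) lay far from the other 3 of its group (Dixon's test at the 95% level). Of 114 gene and group sets tested 9 were singled out, where chance gives about 5.7. Among the members this was Hspa5 in WT replicate 1, at 10.33 beside 10.19 to 10.2 in the other WT muscles. In WT, Ern1 was low in replicate 3 (7.121, others 7.553 to 7.625), Chac1 was high in replicate 4 (8.932, others 7.6 to 7.81), and Hsp90ab1 was low in replicate 2 (11.67, others 12.82 to 12.98). In mdx5cv replicate 4, Canx (10.59, others 10.33 to 10.36), Slc7a5 (6.562, others 5.441 to 5.496) and Sec11c (7.453, others 6.978 to 7.056) were high and Sar1b was low (10.66, others 11.05 to 11.11). Ssr3 was low in mdx5cv replicate 2 (10.42, others 10.67 to 10.72). WT replicate 2 also had the highest log2 ratio of Hsp90b1 to Hsp90ab1 among the WT muscles (-2.44).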

How the results depend on the processing

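Pdia4, Hsp90b1 and Atf4 kept their direction and call in 19 alternatives each. Scaling to equal totals moved the most: 7 members, 61 pathway genes and 5444 of all genes were then higher, and 1, 2 and 820 were lower, with Hspa5 (0.62), Calr (0.51), Atf6 (0.48) and Dnajb9 (0.52) newly called and Herpud1 (-0.059) lost. The median log2 fold change over all genes tested was 0.0035 with the deposited scaling and 0.357 under equal totals. Which of these scalings is closer to the true amounts was not tested. With a minimum absolute log2 fold change of 1, 0 members were higher and 0 lower, 11 pathway genes were higher and 0 lower, and 1414 of all genes were higher and 447 lower. With at least 10 normalized counts in every sample, 26 pathway genes were higher and 15 lower, beside 2135 and 2566 of all genes. Centring on the median lost Xbp1 (0.26), and without a variance trend Herpud1 (-0.42) was lost, which left 1 member lower; the cause was not tested. Leaving out single replicates gave 1 to 2 members lower, with log2 fold changes of -0.53 to -0.32 for Herpud1 and of 0.16 to 0.34 for Hspa5. Replicate numbers are shared between the groups, and the deviations of same-numbered muscles correlated at 0.0501, 0.0309, 0.0722 and 0.146. WT replicates 3 and 4 matched best with their own number in mdx5cv, and WT replicates 1 and 2 did not. Such weak correlations cannot settle whether the numbers pair the muscles. The fit with the replicate block called 3 members higher and 2 lower, 34 and 13 pathway genes, and 2880 and 2736 of all genes, and changed no member's call. With 4 muscles per group and the deposited scaling, the unadjusted 95% confidence intervals of Calr, Dnajb9, Atf6 and Ddit3 included 0. The Atf6 groups nevertheless did not overlap.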
